A study of Macaca mulatta with 6 samples.

Results

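The subject is a set of 10 genes of glucocorticoid signalling: the receptor genes NR3C1 and NR3C2 and the classic targets FKBP5, TSC22D3, SGK1, KLF9, NFKBIA, ERRFI1, PDK4 and CEBPD. They were chosen by name, as a check for effects of the stress axis, but with earlier results of these data known. Of the 10 genes, 8 were found by identifier among the 23191 genes of the deposited table, and all 8 had a mean of at least 10 normalized counts and were tested. TSC22D3 and KLF9 were not analysed here. Normalized counts are reads divided by 1 size factor per library, so that libraries of different depth can be compared.

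Glucocorticoids such as cortisol bind 2 related receptors that act as transcription factors. The mineralocorticoid receptor, encoded by NR3C2, binds cortisol tightly and is occupied at low hormone levels, while the glucocorticoid receptor, encoded by NR3C1, binds it less tightly and is engaged during stress and at the daily peak. In the absence of hormone the glucocorticoid receptor is held in the cytoplasm by heat shock proteins and their partners, and on binding hormone it enters the nucleus, where it activates genes such as FKBP5 and, by way of NFKBIA among others, restrains inflammatory signalling.

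The libraries hold polyadenylated RNA of cells labelled as cortical neurons, from male rhesus monkeys (Macaca mulatta) aged 3 to 4 years. The 3 morphine libraries come from animals injected under the skin with morphine, an opioid, 3 times daily over 90 days, with a dose of 3 mg/kg that was raised stepwise to 15 mg/kg, reached on day 29. The 3 saline libraries come from animals that received saline on the same schedule. The study addressed how long exposure to morphine alters the architecture of chromatin, and these libraries are its expression data. The protocol names 4 animals, 2 per group, and the labels carry a single code for all libraries of a group, so at least 2 libraries of a group come from the same animal. As tests over animals the p-values given here are thus too small, and treatment cannot be told apart from differences between animals. Neither the hour at which tissue was taken nor the level of cortisol in blood was analysed here.

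Recovered depth was 31238653 to 36345095 reads per library. Libraries correlated across genes at 0.972 to 0.978 within a group and at 0.950 to 0.957 between groups on the log2 scale, where genes are not independent replicates. Markers of glia and vessels were detected in every library beside those of neurons, and summed levels of several lists differed between the groups. All 12 pan-neuronal markers were measured. They summed to between 208717 and 213137 normalized counts in the morphine libraries and to between 258309 and 267974 in the saline libraries. Of these markers 6 fell, among them NEFL, NEFM and SNAP25, and 3 rose. SNAP25 had the largest difference of the list, with a mean lower by 31520 normalized counts with morphine. The 10 astrocyte markers measured of 12 listed summed to between 252576 and 255705 in morphine and to between 300527 and 305117 in saline libraries. Of these markers 5 fell, among them GJA1 and SLC1A3, and 2 rose, GFAP and AGT. The lower sum came mainly from SLC1A3 and GJA1, whose means were lower by 41084 and 16082 normalized counts with morphine. The means of GFAP and AGT were higher by 10045 and 6916, so the markers did not shift together. The 7 microglia markers measured of 12 summed to between 7758 and 8315 in morphine and to between 5342 and 5681 in saline libraries (4 rose, among them TREM2, CSF1R and C1QC, and 2 fell). The 13 endothelial and mural markers measured of 14 summed to 18315 to 24098 in morphine and 19563 to 20590.1 in saline libraries. Of these, 4 rose and 4 fell, with a median log2 fold change of -0.05. Among the rises were ACTA2 and the collagen genes COL1A1 and COL1A2, which are not specific to endothelial and mural cells. The 4 that fell are not named here, and log2 fold changes in the list ran from -0.75 to 3.54. Of 8 oligodendrocyte markers measured of 11, 3 rose and 3 fell, with sums of 266512 to 268830 in morphine and 260599 to 265163 in saline libraries. Of 6 oligodendrocyte precursor markers measured of 7, 3 rose and 0 fell in limma (6 and 0 at an unadjusted p under 0.05, 4 and 0 in edgeR), with sums of 23098 to 23851 in morphine and 19028 to 19386 in saline libraries. No marker measured was at 0 in all libraries. In bulk RNA, fewer cells of a type and less RNA per cell cannot be told apart, and the part of these shifts in the results that follow was not tested.

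NFKBIA rose with morphine and was the only 1 of the 8 measured genes to pass in limma at an adjusted p under 0.05. That is 12.5% of the measured genes, with 1 rise and 0 falls, where 27.9% of all 16595 tested genes passed, 12.9% as rises and 15.0% as falls. Of the 6393 tested genes whose mean lay between those of the lowest and highest of the 8, 29.8% passed. SGK1 and CEBPD had higher means with morphine, NR3C2 and ERRFI1 had lower ones, and NR3C1, FKBP5 and PDK4 had means within 10 percent of each other between the groups; these 7 did not pass. At an unadjusted p under 0.05, 3 genes were higher and 1 was lower in limma, 4 of 8 where 41.8% of all tested genes were past that level. The median log2 fold change of the 8 genes was 0.06, against 0.01 over all tested genes, and the median absolute log2 fold change was 0.39, against 0.26. The groups did not overlap for 4 of the 8 genes, 2 with morphine higher and 2 with morphine lower, and they did not overlap for 48.7% of all tested genes. The share of separated genes was thus near that of the whole table, and 4 fold changes were positive and 4 negative.

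**Figure D1:**
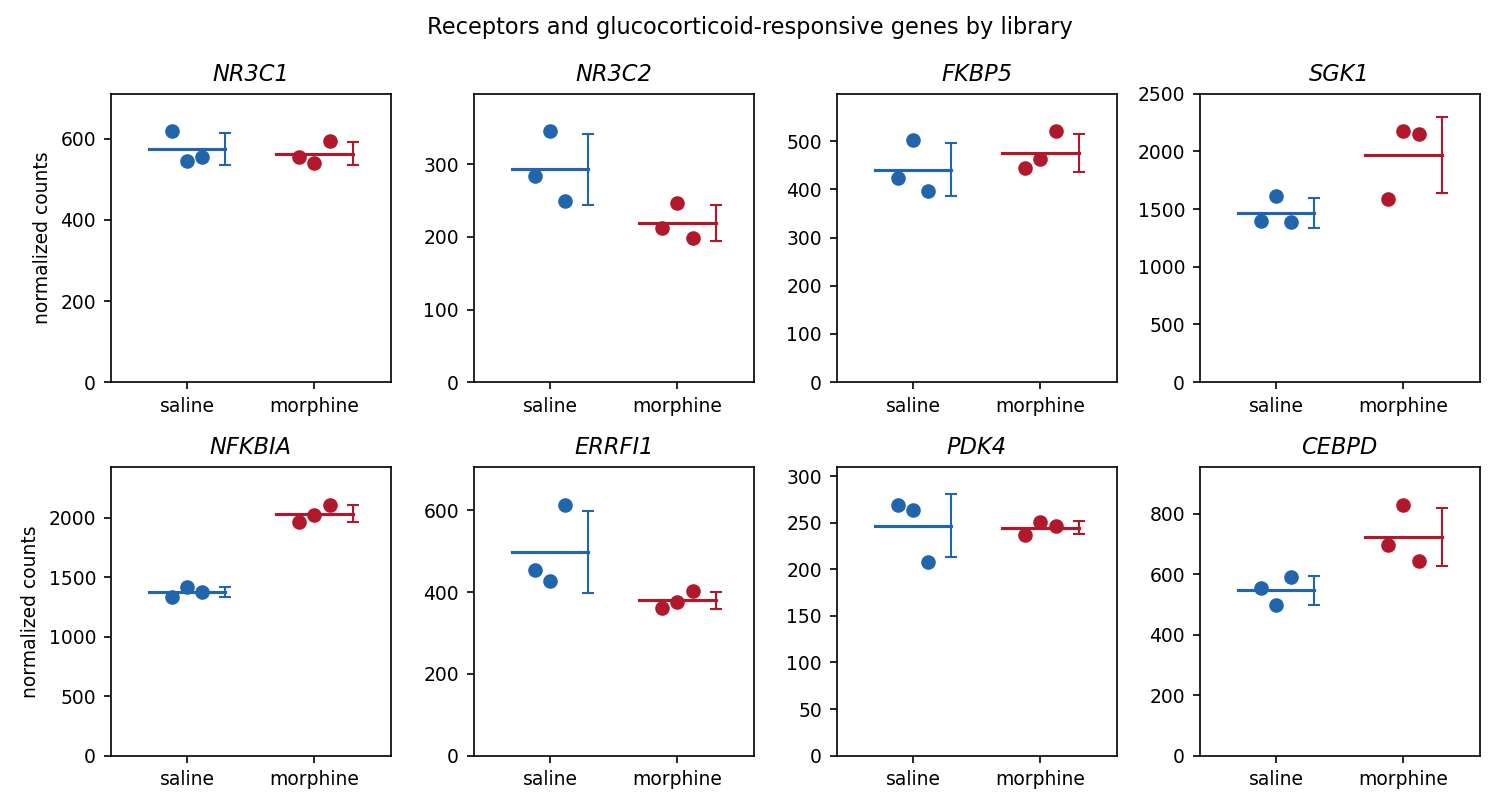
Normalized counts (vertical axis, linear from 0) of the 8 measured genes in the 3 saline and 3 morphine libraries, with 1 point per library, a line at the group mean and a bar of 1 SD. NFKBIA shows the widest clear gap between groups, while the points of NR3C1, FKBP5, SGK1 and PDK4 overlap.

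The glucocorticoid receptor gene NR3C1 (ENSMMUG00000000421) had 556, 540.2 and 595 normalized counts in morphine libraries 1, 2 and 3. Saline libraries 1, 2 and 3 had 619, 546 and 556, and values of each gene are given in this order throughout. The 2 ranges lay almost on top of each other. Group means were 564 ± 28.1 in morphine and 574 ± 39.3 in saline (mean ± SD, n = 3 libraries per group). The log2 fold change was -0.02 ± 0.0746 (SE), with a 95% interval from -0.21 to 0.16 and a limma adjusted p of 0.832. On the linear scale that interval reaches from 0.863 to 1.12 times the saline level, so changes of NR3C1 within those bounds are not excluded. The sign of so small a value depended on single libraries: it was 0.01 without morphine replicate 2 and 0.03 without saline replicate 1.

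The mineralocorticoid receptor gene NR3C2 (ENSMMUG00000014955) had 213, 247 and 199 normalized counts in the morphine libraries and 284, 346 and 249.9 in the saline libraries. Every morphine value lay below every saline value, but the highest morphine and the lowest saline library were only 3.01 normalized counts apart. Means were 219 ± 24.8 in morphine and 293 ± 48.6 in saline (n = 3 libraries per group), which gave a log2 fold change of -0.41 ± 0.149 with a 95% interval from -0.79 to -0.03. NR3C2 did not pass in limma (adjusted p = 0.0996), in edgeR on the recovered reads (adjusted p = 0.0794) or in the authors' deposited table (adjusted p = 0.112). It rests on 200 to 345 reads per library, for which counting error alone gives an SD of 0.0914 on the log2 scale, against observed SDs of 0.159 in morphine and 0.235 in saline libraries.

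The ratio of NR3C1 to NR3C2 describes the balance of the 2 receptors, and gene length cancels when the ratio is compared between groups. It was 2.62, 2.19 and 2.99 in the morphine libraries, against 2.18, 1.58 and 2.22 with saline. Morphine libraries 1 and 3 lay above all saline libraries, and morphine library 2 lay between saline libraries 1 and 3. The mean ratio was 2.60 ± 0.402 in morphine and 1.99 ± 0.359 in saline (n = 3 libraries per group). On the log2 scale the difference was 0.39, with p = 0.20 in an exact two-sided permutation test, where 3 libraries against 3 cannot go below 0.10. The difference was smallest, 0.23, without saline replicate 2, the library with the most NR3C2, and largest, 0.50, without morphine replicate 2.

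**Figure D2:**
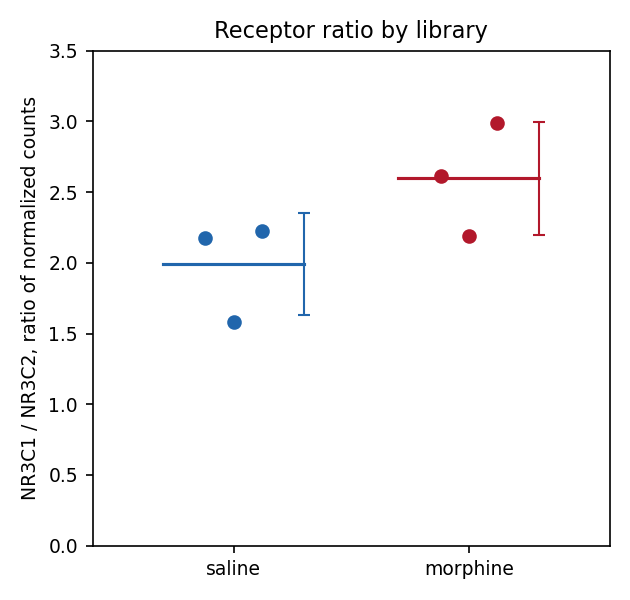
Ratio of NR3C1 to NR3C2 normalized counts (vertical axis, linear from 0) in each library, with the group mean as a line and 1 SD as a bar. The morphine values run from 2.19 to 2.99 and the saline values from 1.58 to 2.22, so the groups overlap.

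Among the targets, NFKBIA (ENSMMUG00000020374) encodes the inhibitor that holds NF-kappaB in the cytoplasm. Glucocorticoids induce it, and so does NF-kappaB itself, which makes it a target of both pathways. It had 1968, 2024 and 2112 normalized counts in the morphine libraries and 1335, 1417 and 1375 in the saline libraries. The lowest morphine library lay 551 normalized counts above the highest saline library. Means were 2035 ± 72.4 and 1376 ± 41.1 (n = 3 libraries per group), 1.48 times the saline level. The log2 fold change was 0.56 ± 0.055, with a 95% interval from 0.42 to 0.70 and a limma adjusted p of 0.00404, and NFKBIA ranked 456 among the 16595 tested genes by p. Without 1 library the adjusted p was between 0.0162 and 0.0217, and the gene passed in each of these 6 fits. In these libraries the summed microglia markers were higher with morphine. Of the 7 measured 4 rose and 2 fell, with log2 fold changes from -0.51 to 1.69, so they did not shift together. The summed astrocyte markers were lower, mainly through SLC1A3 and GJA1, as given above. The part of both lists in the rise of NFKBIA was not tested.

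FKBP5 (ENSMMUG00000011520) encodes a co-chaperone that lowers the affinity of the glucocorticoid receptor for hormone, and its induction by the receptor closes a negative feedback loop. It is among the transcripts most used to read receptor activity. It had 445, 462 and 521 normalized counts in the morphine libraries and 423, 502 and 397 in the saline libraries. The groups overlapped, with saline library 2 above morphine libraries 1 and 2. Means were 476 ± 39.6 and 441 ± 54.9 (n = 3 libraries per group). FKBP5 did not pass, with a 95% interval of its log2 fold change from -0.18 to 0.41 and a limma adjusted p of 0.491. The upper bound corresponds to 1.32 times the saline level, and the lower bound of NFKBIA corresponds to 1.34 times, so that the 2 intervals do not meet. The difference between the 2 genes was not itself tested.

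SGK1 (ENSMMUG00000008140) encodes a kinase that corticosteroids induce through both receptors and that regulates ion channels and transporters. It had 1591, 2175 and 2149 normalized counts in the morphine libraries and 1393, 1613 and 1390.0 in the saline libraries. Morphine library 1 stood apart from the other 2 morphine libraries and lay below saline library 2. Means were 1972 ± 330.1 and 1465 ± 128 (n = 3 libraries per group), which gave a log2 fold change of 0.42 ± 0.149 that did not pass in limma (adjusted p = 0.0955). Without morphine replicate 1 the log2 fold change was 0.56 and SGK1 passed (adjusted p = 0.032). That was the only 1 of the 6 limma fits without 1 library in which it passed. In the others the log2 fold change was as low as 0.34 and the adjusted p as high as 0.224.

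CEBPD (ENSMMUG00000013151) encodes a transcription factor of acute stress and inflammation that glucocorticoids and cytokines induce. It had 698, 831 and 644 normalized counts in the morphine libraries and 555, 497 and 593 in the saline libraries. The groups did not overlap, with 51.1 normalized counts between morphine library 3 and saline library 3. Means were 724 ± 96.1 and 548 ± 48.1 (n = 3 libraries per group), which gave a log2 fold change of 0.40 ± 0.122. CEBPD did not pass in limma (adjusted p = 0.0662), but did with a minimum mean of 50 normalized counts (adjusted p = 0.0468). It passed in 0 of the 6 limma fits without 1 library (adjusted p from 0.071 to 0.160).

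ERRFI1 (ENSMMUG00000042176), an inhibitor of receptors of the epidermal growth factor family, differed in the other direction. It had 361, 376 and 402 normalized counts in the morphine libraries and 455, 428 and 614 in the saline libraries. Saline library 3 stood above the other 5 libraries, and the groups were 26.4 normalized counts apart. Means were 379.6 ± 20.4 and 499 ± 100.4 (n = 3 libraries per group), which gave a log2 fold change of -0.38 ± 0.151 with a limma adjusted p of 0.125. Without saline replicate 3 the log2 fold change was -0.22.

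PDK4 (ENSMMUG00000021389), a kinase that shuts off pyruvate dehydrogenase and spares glucose during fasting and stress, had 237, 251 and 247 normalized counts in the morphine libraries and 269, 264 and 208 in the saline libraries. All morphine values lay between the lowest and the other saline values. Means were 245 ± 7.02 and 247 ± 34.0 (n = 3 libraries per group), and the 95% interval of the log2 fold change ran from -0.29 to 0.29 (limma adjusted p = 0.987). The sign of this value changed with upper-quartile scaling (0.02) and without morphine replicate 1 (0.02), saline replicate 1 (0.06) or saline replicate 2 (0.05).

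**Figure D3:**
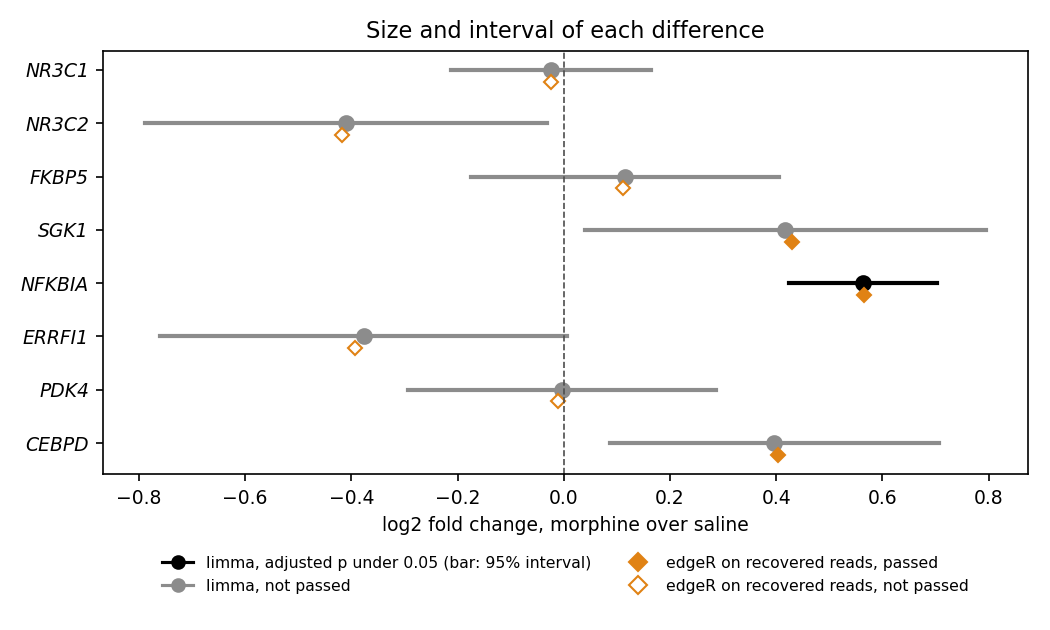
Log2 fold change of morphine over saline (horizontal axis) for the 8 genes, with circles and 95% interval bars from limma and diamonds from edgeR on the recovered reads. The NFKBIA bar runs from 0.42 to 0.70, and the bars of NR3C1, FKBP5, ERRFI1 and PDK4 include 0.

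Count models on the recovered reads passed more of the genes than limma did, and also more of the table. In edgeR 3 of the 8 genes (37.5%) were higher and 0 were lower (2 lower at an unadjusted p under 0.05), where 34.0% of all genes passed, 16.3% as rises. These were NFKBIA (adjusted p = 0.000213), SGK1 (adjusted p = 0.0291) and CEBPD (adjusted p = 0.0307). In DESeq2 the same 3 genes were higher and ERRFI1 was lower (adjusted p = 0.04), 4 of 8 genes where 36.8% of all genes passed. In the authors' deposited table the adjusted p was below 0.05 for NFKBIA, SGK1 (adjusted p = 0.000652) and CEBPD (adjusted p = 0.0138), 3 of 8 genes where 29.5% of genes with an adjusted p passed. The authors' list of 2332 genes past a fold of 1.5 held 0 of the 8 genes. FKBP5, NR3C1, NR3C2 and PDK4 did not pass in limma, edgeR, DESeq2 or the authors' table.

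**Figure D4:**
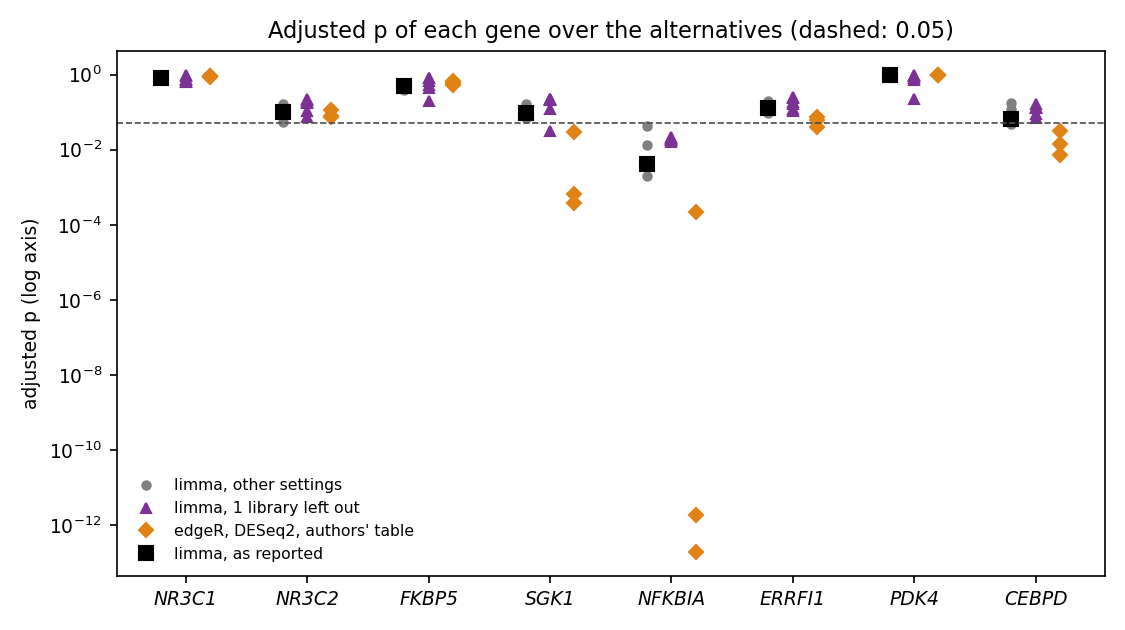
Adjusted p (vertical axis, log scale) of each gene in limma as reported (squares), in limma under other settings (circles) and without 1 library (triangles), and in edgeR, DESeq2 and the authors' deposited table (diamonds), with a dashed line at 0.05. All points of NFKBIA lie below the line, all points of NR3C1, NR3C2, FKBP5 and PDK4 lie above it, and those of SGK1, ERRFI1 and CEBPD fall on both sides.

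A further list held 30 genes known to respond to glucocorticoids. Of 23 measured, 3 rose and 4 fell in limma, and the median log2 fold change was -0.01. These 7 genes are 30.4% of those measured, near the 27.9% of all tested genes. TXNIP, an inhibitor of thioredoxin that also lowers glucose uptake, rose from 2573, 2664 and 2426 normalized counts in the saline libraries to 6109, 6283 and 6062 in the morphine libraries, by 1.27 ± 0.0571 on the log2 scale (adjusted p = 0.00114). Its groups were far apart relative to the spread within them. The clock gene PER1, which glucocorticoids induce through its promoter and which also follows the time of day, had 5088, 4781 and 4887 normalized counts in the morphine libraries and 3814, 3849 and 3929 in the saline libraries, a rise of 0.35 ± 0.0504. ZFP36, which speeds the decay of inflammatory transcripts, rose by 0.53 ± 0.0934, but did not pass in 4 of the 6 fits without 1 library (adjusted p up to 0.0561).

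The falls in that list were in genes of several roles. PIK3R1, the regulatory subunit of PI3 kinase, had 7309, 7314 and 7526 normalized counts with morphine against 11662, 12443 and 11265 with saline, and fell by 0.67 on the log2 scale. The lowest saline library lay 3739 normalized counts above the highest morphine library. GLUL, the glutamine synthetase of astrocytes, fell by 0.32. The summed astrocyte markers were lower with morphine, mainly through SLC1A3 and GJA1, while GFAP and AGT rose. The part of these markers in the fall of GLUL was not tested. ANXA1, an anti-inflammatory mediator induced by glucocorticoids, and MERTK, a receptor for the uptake of dying cells that astrocytes and microglia use, fell by 0.42 and 0.31. Both lost their call whichever library was left out (adjusted p up to 0.0843 and 0.112). The choice of ZFP36, ANXA1 and MERTK followed a look at their values. The other 16 measured genes of the list did not pass, among them KLF15 (log2 fold change -0.0049 ± 0.0745), SESN1 and MAOA.

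Another list held 22 genes of the receptor's chaperone cycle and its coregulators. Of 20 measured, 4 rose and 2 fell in limma, with a median log2 fold change of -0.01. The share that passed, 30.0%, was near the 27.9% of all tested genes. HSPA8, the constitutive heat shock protein that helps load the receptor, had 18789, 19118 and 18824 normalized counts in the morphine libraries and 25076, 26333 and 25587 in the saline libraries, and fell by 0.44 ± 0.0475 (adjusted p = 0.00485). PTGES3, the p23 co-chaperone that stabilises the hormone-binding complex, fell by 0.42 ± 0.0762. FKBP4, which competes with FKBP5 for that complex and favours transport to the nucleus, did not pass (log2 fold change 0.01 ± 0.0487), and neither did STIP1 (-0.04 ± 0.0466).

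Among the rises in that list were the coactivator NCOA1 by 0.33 ± 0.066 and the acetyltransferases CREBBP and EP300 by 0.27 each, the last 2 named after their values had been seen. Without 1 library only 1 to 3 of the 20 genes passed. HSPA8 passed in all 6 of these fits, and PTGES3 (adjusted p up to 0.0551) and NCOA1 (adjusted p up to 0.0703) in 3. CREBBP (adjusted p up to 0.0978) and EP300 (adjusted p up to 0.108) lost their call in each of the 6.

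**Figure D5:**
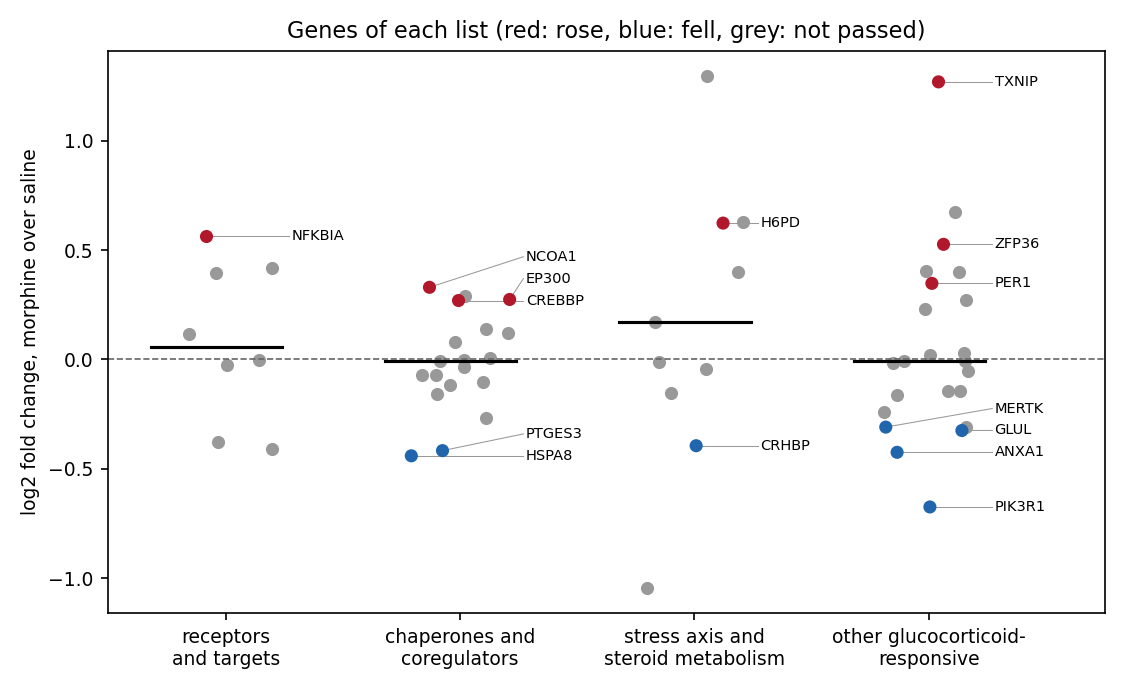
Log2 fold change of morphine over saline (vertical axis) of the 8 receptors and targets and of the genes reported here from the 3 further lists, with a line at the median of all measured genes of each list. Named points passed in limma (red rose, blue fell), and the medians from left to right are 0.06, -0.01, 0.17 and -0.01.

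Genes of the stress axis and of steroid metabolism were mostly low or variable. Of 20 listed 11 were measured, of which 1 rose and 1 fell in limma, 18.2% where 27.9% of all tested genes passed. The median log2 fold change of the 11 was 0.17, against 0.01 over all tested genes. It was -0.01 over the 7 genes with a mean of at least 50. H6PD, which supplies the cofactor for regeneration of cortisol by HSD11B1, had 163, 159.8 and 135 normalized counts in the morphine libraries and 118, 84.2 and 94.9 in the saline libraries, a rise of 0.62 ± 0.152 on the log2 scale. CRHBP, the binding protein of corticotropin-releasing hormone that cortical interneurons express, had 631, 749 and 615 in the morphine and 843, 919 and 853 in the saline libraries, a fall of 0.39 ± 0.0952. Each passed in 1 of the 6 fits without 1 library (adjusted p up to 0.104 for H6PD and 0.101 for CRHBP). The hormone gene CRH did not pass (log2 fold change -0.15 ± 0.0959). Its receptor gene CRHR1 had 679, 854 and 1658 normalized counts in morphine libraries 1, 2 and 3 and 1011, 994 and 981 in the saline libraries, so the morphine libraries spread on both sides of the tightly grouped saline libraries. It did not pass either (adjusted p = 0.982).

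The receptor genes ESR1 and PGR were close to the limit of measurement. ESR1, the oestrogen receptor, did not pass (adjusted p = 0.108) except without saline replicate 1 (adjusted p = 0.0332), and PGR, the progesterone receptor, had a mean of 8.44 normalized counts, under the level for testing. The kidney-type enzyme HSD11B2, which inactivates cortisol, had 21, 12 and 11 reads in the morphine libraries and 19, 10 and 0 in the saline libraries, where a count of 0 allows up to 3 reads.

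The genes whose log2 values ran most like those of NR3C1, FKBP5 and NFKBIA over the 6 libraries were sought among 12802 other tested genes with a symbol, by the root mean square difference of values centred on each gene's mean. For NFKBIA these were FAM107B (0.0196), ARMC5 (0.0205) and PLCH2 (0.0254), each with a log2 fold change between 0.55 and 0.58. TTC19 (0.0269), AMOTL2 (0.0279) and BOD1 (0.033) lay nearest to NR3C1, and MACO1 (0.0214), KDM5D (0.0403) and TSG101 (0.0461) to FKBP5. None of the genes nearest to NR3C1 or FKBP5 passed in limma, and with 6 libraries in 2 groups such likeness is a description of these libraries.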

How the data were processed

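Polyadenylated RNA was sequenced in 6 libraries, grouped and numbered by their titles. Tools listed in the submitters' processing notes are DESeq2 1.18.1, StringTie and Bowtie2 2.1.0, and hg19 is the build listed there, with no role stated for any of them. The gene identifiers are from rhesus, which leaves build and annotation unsettled, and the use of strand in counting is not stated in the sources read here. In the deposited table, which covers 23191 genes, the values per library are normalized counts, a signal made by the authors as reads over 1 size factor for each library. Beside them stand the authors' log2 fold changes with their standard errors, a test statistic (a score, per the file headers) and p-values, all deposited by the authors. The authors' second table of 2332 genes equals the rows past a fold of 1.5 at an unadjusted p under 0.05.

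Values in all 6 libraries (100%) were whole multiples of the worth of 1 read within 0.001, so reads were recovered. A table of gene names matched 15436 identifiers (66.6%). Since the values are normalized, limma 3.58.1 in R 4.3.3 was run on log2(value + 1), which understates changes of low genes, with group as the only term, over genes with a mean of at least 10. Two-sided p-values received a Benjamini-Hochberg adjustment across all tested genes, and a gene rose or fell at an adjusted p under 0.05. The limma prior degrees of freedom were 1.27, so each gene was judged largely by its own spread. Alternatives were TMM and upper-quartile scaling, pseudocounts of 0.5 and 5, no minimum and a minimum of 50, omission of each library in turn, a block for the replicate number, the authors' comparison and, with recovered reads as input, DESeq2 1.42.0 and edgeR 4.0.16 (quasi-likelihood). The fits were also run on simulated counts of independent libraries, a setting that does not cover libraries from the same animal. Within groups, libraries differed by more than counting noise (mean chi-square per gene of 17.5 to 23.8).

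The 10 genes and all lists were chosen with earlier results of these data known. Named from each further list were the called genes with the smallest adjusted p, at most 4 (3 for markers), and for NR3C1, FKBP5 and NFKBIA the 3 genes most alike. Some genes of the further lists enter the counts and medians but their own values are not reported here. Levels were not compared between genes, since gene lengths of the build were not used. Listed genes that matched no identifier of the table were not analysed here, and neither were promoter motifs. Figures were drawn with matplotlib 3.10.9.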

Additional observations from a re-analysis of the deposited data

How the results depend on the processing

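With 3 libraries a group and at most 2 animals behind them, the fits measure the spread between these libraries. NFKBIA kept its direction and passed under every alternative run. Of the 8 measured genes 1 passed in limma, 2 with a minimum mean of 50, 3 in edgeR and in the authors' deposited table, 4 in DESeq2, and 1 to 2 without 1 library. Over all genes 4631 passed, 2993 with no minimum and 2536 to 3181 without 1 library. Of the chaperones and coregulators 6 passed, 2 with no minimum and 1 to 3 without 1 library. Of the stress axis genes 2 passed in limma, 1 in the authors' table, 0 with no minimum (2 at an unadjusted p under 0.05) and 0 to 2 without 1 library. Of the other responsive genes 7 passed, and 4 to 6 without 1 library. The log2 fold change of NR3C1 lay between -0.064 and 0.031 without 1 library. That of PDK4 lay between -0.12 and 0.064 without 1 library and was 0.021 with upper-quartile scaling. The causes of these differences were not tested. The receptor balance was higher with morphine in all of its alternatives (0.23 to 0.50), which reuse the same libraries. Its exact permutation p was between 0.2 and 0.4 in them. Without 1 library this p cannot go below 0.2, and with the replicate block it cannot go below 0.25. The p of 0.25 with the block was at that limit. So was the p of 0.2 without morphine replicate 2 or without saline replicate 3.

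With the replicate number as a block (replicate block), 1577 genes passed in all, 1 of the 8 genes (NFKBIA, adjusted p = 0.0426), 1 of the chaperones and coregulators, 0 of the stress axis genes (4 at an unadjusted p under 0.05, 2 in edgeR without the block) and 2 of the other responsive genes. Same-numbered libraries did not deviate together: across genes the correlations of their deviations were -0.0563, -0.0039 and -0.0284 for numbers 1, 2 and 3. The highest correlation of any morphine with any saline library was 0.0524, for morphine library 3 with saline library 1. These correlations gave no sign that the numbers pair the libraries. They cannot exclude a shared batch, because the deviations within a group are not independent of each other.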
